A study of Mus musculus with 35 samples.

Results

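Liver miRNAs were examined 120 days after a single injection of N-ethyl-N-nitrosourea (ENU), an alkylating agent that forms DNA adducts and is a mutagen and a liver carcinogen in mice. The 4 arrays labelled ENU day 120 (post-treatment day, PTD, 120) were taken from the 35 arrays of the series by their titles and compared with the 7 arrays of mice given the vehicle, dimethylsulfoxide (DMSO). All animals were female Big Blue mice, a transgenic line made for measuring mutations in tissues, and were injected intraperitoneally at 6 months of age, with ENU at 120 mg/kg body weight or with DMSO alone. By their labels, 3 controls were killed on day 1 and 4 on day 30, whereas the methods of the study give these numbers the other way round, so that the day of a control is used here only as a label. No control of day 120 was analysed here, so that ENU treatment and the time elapsed since injection, with the age of the mice, cannot be told apart. The arrays measure whole liver tissue, in which fewer cells of a type and less RNA per cell cannot be told apart.

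MicroRNAs are short RNAs that pair with messenger RNAs, mainly through a stretch near their 5′ end called the seed, and lower the stability or translation of the messenger. Liver tissue is dominated by the hepatocyte miRNA miR-122, and blood and immune cells bring miRNAs of their own, among them miR-142 and miR-223. The genes of the miR-34 family are transcribed under the control of p53, the transcription factor activated by DNA damage, and their products slow the cell cycle.

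The sequences below are those of miRNAs on which the results turn and for which the RefSeq table (GRCm38.p6) lists a mature sequence. Capitals mark the seed, bases 2 to 8. The array names carry no arm for some miRNAs, and the current name was assigned by hand. The first set holds 3 of the 5 miRNAs that met the thresholds of the study at PTD 120.
miR-453: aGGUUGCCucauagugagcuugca
miR-211 (miR-211-5p): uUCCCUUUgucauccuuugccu
miR-142-3p (miR-142a-3p): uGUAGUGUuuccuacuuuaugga

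The sequence of miR-453 lies at chr12:109735669-109735692 on the plus strand, within the span of the long noncoding RNA Mirg in the imprinted Dlk1-Dio3 region. The sequence of miR-211 lies at chr7:64205831-64205852 on the plus strand, within the span of Trpm1, and that of miR-142-3p at chr11:87756903-87756925 on the plus strand. These 3 miRNAs have 3 different seeds. The other two, miR-135b and miR-466c-5p, are named only.

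The second set is shown because its members differed between PTD 120 and PTD 30 or share the seed of those that did.
miR-34a (miR-34a-5p): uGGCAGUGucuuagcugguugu
miR-34b-5p: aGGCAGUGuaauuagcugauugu
miR-449a (miR-449a-5p): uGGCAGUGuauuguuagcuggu
miR-449c (miR-449c-5p): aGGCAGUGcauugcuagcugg
miR-343: uCUCCCUUcaugugcccaga

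The seed GGCAGUG is common to miR-34a (chr4:150068473-150068494, plus strand), miR-34b-5p (chr9:51103610-51103632, minus strand), miR-449a and miR-449c, and miR-343 (chr7:19386688-19386707, plus strand, within the span of Ercc2) has another one.

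Each array held assays for 376 miRNAs and 4 reference small RNAs. The deposited value is the threshold cycle (Ct), the cycle of the PCR in which the signal of a well passes a set line, so that 1 cycle less stands for about 1 doubling of RNA. The level of a miRNA is given as -ΔCt, the average Ct of the 4 reference RNAs (U6 and the small nucleolar RNAs snoRNA142, snoRNA202 and snoRNA251) minus the Ct of the miRNA on the same array, which is a log2 scale. A difference of mean -ΔCt between groups is a log2 fold change. Of the 376 miRNAs, 214 had a mean Ct of at most 30 over the 11 arrays and 6 had a mean Ct above 35. The run records of the arrays give 3 periods. The 3 DMSO day 1 arrays were run in February and March, 2 of the DMSO day 30 arrays (replicates 1 and 2) in April together with all 4 PTD 120 arrays, and the other 2 DMSO day 30 arrays (replicates 3 and 4) in May.

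The DMSO day 1 arrays stood apart from the others. The reference RNAs had a mean Ct between 21.1 and 21.4 in the DMSO day 1 arrays, between 21.7 and 22.3 in the DMSO day 30 arrays and between 21.5 and 22.3 at PTD 120. The median Ct of all miRNAs minus the reference Ct was 7.73 ± 0.340 (SD, n = 3) in the DMSO day 1 arrays, 6.83 ± 0.157 (SD, n = 4) in the DMSO day 30 arrays and 6.79 ± 0.216 (SD, n = 4) at PTD 120. The PTD 120 arrays thus overlapped the DMSO day 30 arrays (exact permutation p = 0.800, two-sided), and both lay below all DMSO day 1 arrays (DMSO day 1 against DMSO day 30, exact permutation p = 0.0286, the smallest that 3 against 4 allows). The 2 wells that monitor reverse transcription differed by 0.283 and 0.295 cycles in the May controls and between -0.261 and -0.0973 in the other 9 arrays. With this difference as a covariate the higher miRNAs past the thresholds given below were 16 instead of 5. In PTD 120 replicate 3, snoRNA202 had a Ct of 21.4, apart from the other PTD 120 arrays.

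**Figure D1:**
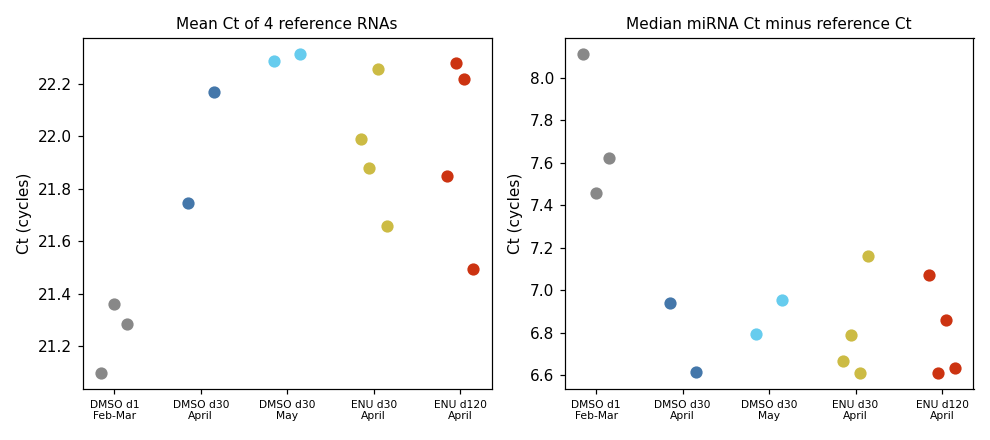
Left, mean Ct of the 4 reference RNAs, and right, median Ct of 376 miRNAs minus that mean, both in cycles, with 1 dot per array by group and run period. The DMSO day 1 arrays have the lowest reference Ct, between 21.1 and 21.4, and the PTD 120 arrays lie among the DMSO day 30 arrays on the right.

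At PTD 120, 5 miRNAs were higher than in the 7 controls and 0 were lower by the thresholds of the study, an unadjusted p under 0.01 and a fold change above 2. These differentially expressed miRNAs (DEMs) were miR-453, miR-135b, miR-211, miR-142-3p and miR-466c-5p, with fold changes between 2.55 and 4.33. They were 1.33% of the miRNAs tested, and the share of lower DEMs was 0%. No miRNA passed a Benjamini-Hochberg adjusted p of 0.05 in limma, where the lowest adjusted p was 0.446. At an unadjusted p under 0.05, 31 miRNAs (8.24%) were higher and 2 (0.532%), miR-654-3p and miR-721, were lower. The direction was shared by most miRNAs, with 310 of 376 above 0 and a median log2 fold change of 0.46. With every array scaled to its own median miRNA Ct, and not to the reference RNAs, the median was 0.04, 11 miRNAs (2.93%) were higher and 11 (2.93%) lower at an unadjusted p under 0.05, and the DEMs were 1 higher (0.266%), miR-211, and 4 lower (1.06%), miR-343, miR-654-3p, miR-721 and miR-763.

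The same comparison with the 4 DMSO day 30 controls alone gave a median log2 fold change of 0.01, with 197 of 376 miRNAs above 0. The DEMs were then 1 higher (0.266%), which was miR-453, and 5 lower (1.33%), with 13 miRNAs (3.46%) higher and 14 (3.72%) lower at an unadjusted p under 0.05. The lower DEMs were miR-376a, miR-654-3p, miR-679, miR-490 and miR-763, each with a mean Ct above 30. No adjusted p of this comparison in limma was below 0.595. Of the 5 DEMs found with all controls, 1 was also a DEM with the DMSO day 30 controls.

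**Figure D2:**
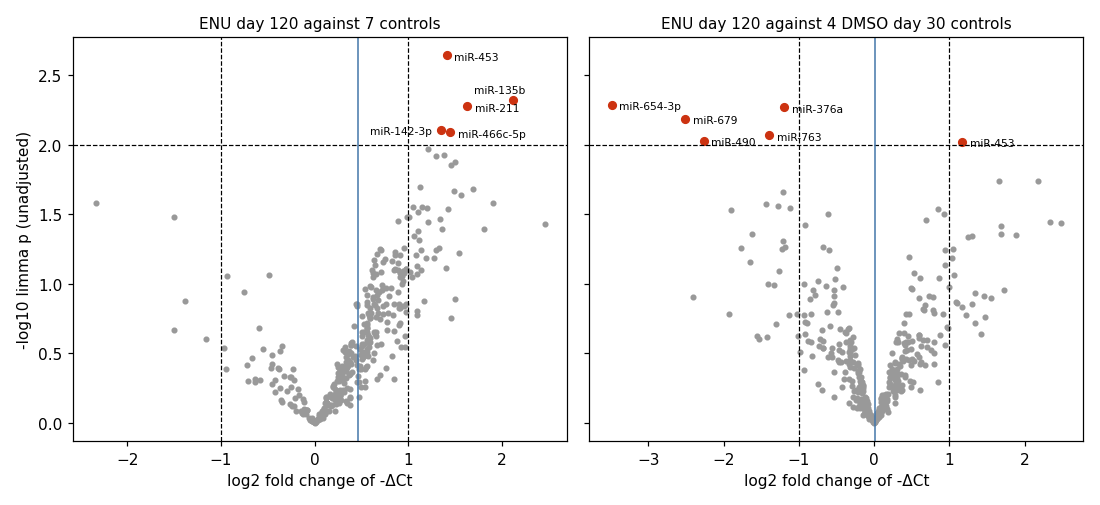
Log2 fold change of -ΔCt (x axis) against -log10 of the unadjusted limma p (y axis) for 376 miRNAs at PTD 120, with all 7 controls on the left and the 4 DMSO day 30 controls on the right. Red dots are DEMs, dashed lines the thresholds and the blue line the median of all miRNAs, which is 0.46 on the left and 0.01 on the right.

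With the run period as a block, which compares PTD 120 with the April controls, 1 miRNA was a higher DEM (0.266%) and 1 a lower DEM (0.266%), and 2 (0.532%) were higher and 5 (1.33%) lower at an unadjusted p under 0.05. The higher DEM was miR-466f-5p, with a log2 fold change of 1.36, and the lower DEM was miR-343, with -1.52. The 2 higher at an unadjusted p under 0.05 were miR-466f-5p and miR-421, and the 5 lower were miR-343, miR-376a, miR-490, miR-654-3p and miR-763. No adjusted p in limma was below 0.990. All 4 PTD 120 arrays lay above all 7 controls for 3 miRNAs (0.798%), which were miR-453, miR-362-3p and miR-871, and below all controls for 0 (0%).

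miR-453, a miRNA of the imprinted Dlk1-Dio3 cluster, was the DEM with the smallest p. Its -ΔCt was -5.13, -4.87, -5.79 and -6.13 in the PTD 120 arrays. In the controls it was -7.83, -6.91 and -6.89 in the DMSO day 1 arrays, -6.32 and -6.47 in the April arrays and -6.61 and -7.18 in the May arrays. The PTD 120 arrays and the controls did not overlap. The log2 fold change was 1.41 (SE 0.372, 95% interval 0.60 to 2.21), with an adjusted p of 0.446 in limma and an exact permutation p of 0.00303, the smallest that 4 against 7 allows. It was 1.17 against the DMSO day 30 controls (exact permutation p = 0.0286, the smallest that 4 against 4 allows) and 0.91 against the 2 April controls, where 4 against 2 cannot give a p below 0.0667. Scaled to the array median instead of the reference RNAs, the difference was 0.99. miR-453 was no longer a DEM without PTD 120 replicate 1 (1.29) or replicate 2 (1.20).

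miR-135b, which is known to target the tumour suppressor Apc, had the largest fold change of the DEMs. Its -ΔCt was -5.60, -5.25, -6.09 and -6.49 at PTD 120. It was -8.98, -7.17 and -7.51 in the DMSO day 1 arrays, -6.47 and -6.79 in the April arrays and -9.21 and -9.68 in the May arrays. The April controls lay next to the PTD 120 arrays, 1 of them within their range, and the May controls were the lowest. Against all controls the log2 fold change was 2.12 (SE 0.623, adjusted p = 0.446 in limma, exact permutation p = 0.0212). It was 3.59 against the May controls and 0.77 against the April controls. miR-135b was no longer a DEM without the May controls (1.53), without PTD 120 replicate 1 (2.03) or without PTD 120 replicate 2 (1.91).

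miR-211, whose gene lies within Trpm1 and which is best known from pigment cells, had a -ΔCt of -6.36, -6.33, -6.37 and -5.28 at PTD 120. It was -8.49, -8.06 and -7.89 in the DMSO day 1 arrays, -6.91 and -6.09 in the April arrays and -7.88 and -8.64 in the May arrays. Of the April controls, 1 lay above 3 of the PTD 120 arrays. This gave a log2 fold change of 1.62 (SE 0.486, adjusted p = 0.446 in limma, exact permutation p = 0.0212), against 0.41 with the April controls (0.15 without PTD 120 replicate 4) and 2.17 with the May controls. miR-211 was no longer a DEM without PTD 120 replicate 4, the highest array (1.35), without DMSO day 1 replicate 1 (1.49) or 2 (1.56), or without DMSO day 30 replicate 4 (1.47).

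miR-142-3p, which is made in blood and immune cells, had a -ΔCt of 0.61, 0.78, 0.46 and 1.48 at PTD 120. It was -0.34, -1.61 and -1.30 in the DMSO day 1 arrays, 0.65 and -0.03 in the April arrays and -0.66 and -0.33 in the May arrays. Of the April controls, 1 lay within the range of the PTD 120 arrays. Its log2 fold change was 1.35 (SE 0.429, adjusted p = 0.446 in limma, exact permutation p = 0.0212), and it was 0.92 against the DMSO day 30 controls and 0.52 against the April controls (0.31 without PTD 120 replicate 4). It stayed a DEM only without DMSO day 30 replicate 1 or 2, and with any of the other 9 arrays left out it was between 1.13 and 1.47 and no DEM.

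miR-466c-5p, from the miRNA cluster in an intron of Sfmbt2, was the dimmest of the DEMs, with a mean Ct of 30.0 at PTD 120. Its -ΔCt was -9.08, -8.09, -8.25 and -6.73 at PTD 120. It was -9.50, -10.17 and -10.36 in the DMSO day 1 arrays, -9.09 and -8.78 in the April arrays and -8.89 and -9.59 in the May arrays. Of the PTD 120 arrays, 3 lay above all controls. It had a log2 fold change of 1.45 (SE 0.463, adjusted p = 0.446 in limma, exact permutation p = 0.0121), and it was 1.05 against the DMSO day 30 controls (0.61 without PTD 120 replicate 4). It was no longer a DEM with any of 7 arrays left out, where it lay between 1.01 (without PTD 120 replicate 4) and 1.52.

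**Figure D3:**
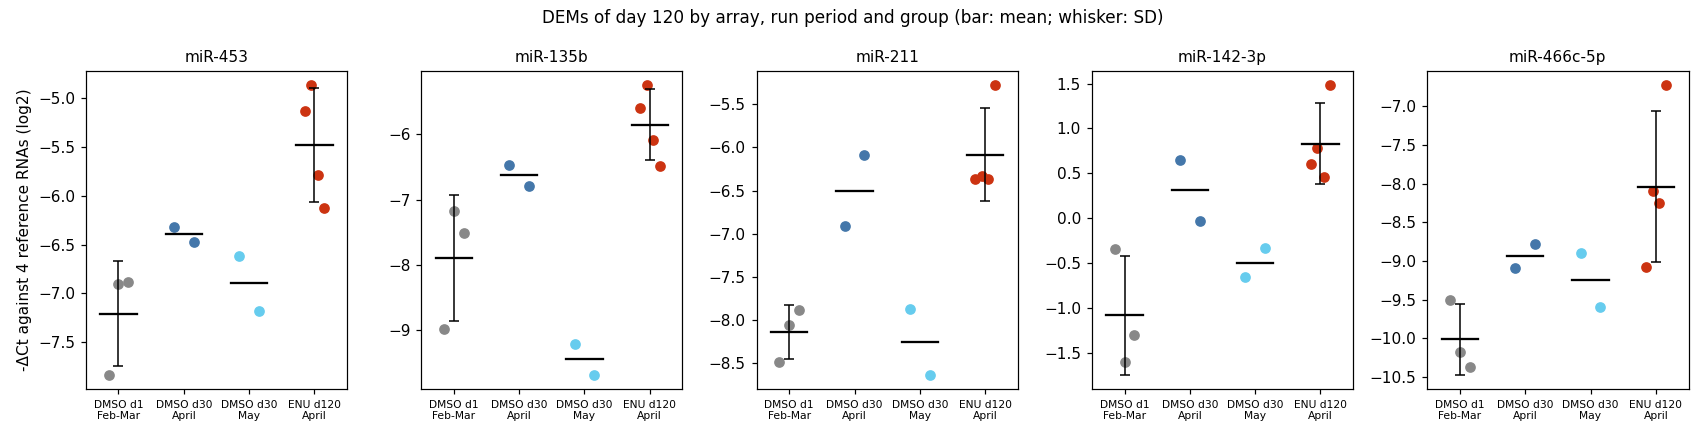
-ΔCt (log2 scale, y axis) of the 5 DEMs of PTD 120, with 1 dot per array by group and run period, a bar for the mean and a whisker for the SD where a group holds over 2 arrays. For miR-135b and miR-211 the May controls lie near the DMSO day 1 controls or below them, and the April controls lie beside the PTD 120 arrays.

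Of the 31 higher miRNAs, all had a positive log2 fold change against the DMSO day 1 controls (median 1.79), all against the May controls (median 1.26) and 29 against the April controls (median 0.61). Since they were chosen on all controls, these counts are a description. Against the April controls, 5 of the 31 had a log2 fold change above 1, which were miR-202-5p, miR-363, miR-704, miR-582-5p and miR-466a-5p, each with a mean Ct above 30. With each PTD 120 array left out in turn, a calculation added after seeing the data, only miR-202-5p stayed above 1 every time (1.31 to 1.84). Without PTD 120 replicate 4, miR-363 was at 0.33, miR-466a-5p at 0.56 and miR-582-5p at 0.66, and miR-704 fell below 1 without replicate 2 (0.91) or 3 (0.98). The 2 lower miRNAs were near the end of the 40 cycles. miR-721 had a mean Ct of 38.3 at PTD 120 and miR-654-3p one of 36.1, and the log2 fold changes were -1.50 (SE 0.630) and -2.34 (SE 0.935).

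Among the 214 miRNAs with the lower Ct values, the higher ones next to the DEMs by p were miR-705, miR-205, miR-467c and miR-142-5p. miR-705 had a -ΔCt of -7.83, -6.99, -7.09 and -5.95 at PTD 120, with a median of -8.24 and a highest value of -7.27 in the controls, and 3 of the PTD 120 arrays lay above all controls. Its log2 fold change was 1.21 (SE 0.407, adjusted p = 0.446 in limma, exact permutation p = 0.00606) against all controls and 0.88 against the April controls (0.54 without PTD 120 replicate 4). The lower one with the smallest p was miR-345-5p, with -6.78, -6.59, -6.60 and -6.45 at PTD 120 and between -6.46 and -5.90 in the controls, a narrow range in all periods. Of the PTD 120 arrays, 3 lay below all controls. The log2 fold change was -0.49 (SE 0.262, 95% interval -1.05 to 0.08, adjusted p = 0.446 in limma, exact permutation p = 0.00606), and it was -0.41 against the DMSO day 30 controls and -0.53 against the April controls.

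A further pair of miRNAs that the study lists for this day, miR-205 and miR-681, did not meet the DEM thresholds in limma. miR-205, known from epithelia, had a -ΔCt of -4.38, -5.00, -4.37 and -4.14 at PTD 120, between -7.15 and -6.28 in the DMSO day 1 arrays and between -5.55 and -4.95 in the DMSO day 30 arrays. Against all controls the difference was 1.30 on the log2 scale (SE 0.445, adjusted p = 0.446 in limma, exact permutation p = 0.0242), and 0.69 against the DMSO day 30 controls. miR-681 had a -ΔCt between -6.98 and -6.29 at PTD 120 and of -9.83 and -9.39 in the May controls, with -7.25 and -6.68 in the April controls. Its log2 fold change was 1.48 (SE 0.567, adjusted p = 0.446 in limma, exact permutation p = 0.0364) against all controls, 3.01 against the May controls and 0.36 against the April controls.

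Among 9 blood-cell and immune-cell miRNAs, 3 were higher at an unadjusted p under 0.05 and 0 were lower, beside 8.24% of all miRNAs higher. Without PTD 120 replicate 4, 1 of the 9 was higher, beside 21 of all 376 miRNAs. Scaled to the array median, 2 of the 9 were, beside 11 of 376. The 3 were miR-142-3p, the other arm of its hairpin, miR-142-5p, and miR-223, which is known from neutrophils and other myeloid cells. miR-223 had a -ΔCt of 0.25, 0.17, -0.01 and 0.54 at PTD 120, between -1.86 and -1.48 in the DMSO day 1 arrays, and -0.68, -0.16, -0.48 and 0.16 in the DMSO day 30 arrays. Of the PTD 120 arrays, 3 lay above all controls. The log2 fold change of miR-223 was 1.12 (SE 0.422, adjusted p = 0.446 in limma, exact permutation p = 0.0273), and it was 0.53 against the DMSO day 30 controls (exact permutation p = 0.0571). That of miR-142-5p was 1.46 (SE 0.514, adjusted p = 0.446 in limma), with 0.84 against the April (0.47 without PTD 120 replicate 4) and 2.47 against the May controls. The median of the list was 0.66, against 0.46 for all miRNAs, and 0.29 against the DMSO day 30 controls, where the median of all was 0.01. The mean -ΔCt of the 9 miRNAs lay between -2.90 and -2.38 at PTD 120, between -2.82 and -2.78 in the April controls, between -3.17 and -2.98 in the May controls and between -4.04 and -3.57 in the DMSO day 1 controls. The part of these cells in the differences was not tested.

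The liver label was borne out by the hepatocyte markers. miR-122 had the lowest mean Ct of all 376 assays, with 13.9 at PTD 120. Its -ΔCt was 7.84, 8.47, 7.73 and 8.12 at PTD 120, between 8.04 and 8.28 in the DMSO day 30 controls and between 6.75 and 7.11 in the DMSO day 1 controls. Its log2 fold change was 0.44 against all controls (95% interval -0.41 to 1.29). Against the DMSO day 30 controls it was -0.09, and between -0.23 and 0.01 with 1 PTD 120 array left out. Of 6 hepatocyte-rich miRNAs, 0 passed an unadjusted p of 0.05 in either direction, beside 8.24% of all miRNAs higher and 0.532% lower, and their median was 0.39 against all controls and -0.27 against the DMSO day 30 controls. Scaled to the array median, 1 of them, miR-455, was lower (-1.02, SE 0.433), beside 2.93% of all miRNAs lower. For miR-455, DMSO day 30 replicate 4 had a -ΔCt of -2.32, and the other controls lay between -4.54 and -3.74.

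Of 3 red-cell miRNAs and of 10 endothelial and stromal miRNAs, 0 passed an unadjusted p of 0.05, beside 8.24% of all miRNAs higher and 0.532% lower. The medians of the 2 lists were 0.34 and 0.52 against all controls and 0.31 and -0.13 against the DMSO day 30 controls. The red-cell miRNAs miR-144, miR-451 and miR-486 were at 0.40, -0.01 and 0.31 against the DMSO day 30 controls. Without PTD 120 replicate 4 they were at 0.43, 0.51 and 0.71. Of 7 biliary and other epithelial miRNAs, 1 was higher, which was miR-205, with a list median of 0.57 against all controls, 0.15 against the DMSO day 30 controls and -0.036 against the April controls. Of 14 miRNAs of muscle, brain and pancreas, 1 was higher, which was the brain miRNA miR-9, with a log2 fold change of 1.38 (SE 0.473) against all controls and 0.52 against the April controls. The median of this list was 0.29 against all controls and -0.22 against the DMSO day 30 controls. Against the latter, 1 was higher, again miR-9, and 2 were lower, miR-124 and miR-137, beside 3.46% and 3.72% of all miRNAs. Of the 14, 10 had a mean Ct above 30. Scaled to the array median, 0 of the 14 passed, beside 2.93% of all miRNAs in each direction. With 1 array left out between 1 and 3 were higher, the latter without PTD 120 replicate 1, beside 38 of all 376 miRNAs.

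Of 13 miRNAs often higher in liver tumours, 2 were higher at an unadjusted p under 0.05, which were miR-135b and miR-96, and 0 were lower, beside 8.24% of all miRNAs higher and 0.532% lower. The list median was 0.72 against all controls, 0.37 against the DMSO day 30 controls and 0.35 against the April controls. With 1 array left out, between 1 and 5 of the 13 were higher. The 5 came without PTD 120 replicate 3, beside 29 of all 376 miRNAs. miR-96 had a log2 fold change of 1.12 (SE 0.512) against all controls and 0.13 against the April controls, where it lay between 0.01 and 0.29 with 1 PTD 120 array left out. miR-21, a miRNA that is raised in many tumours, had a log2 fold change of 0.93 (SE 0.506, adjusted p = 0.446 in limma) against all controls and 0.23 against the DMSO day 30 controls (0.02 without PTD 120 replicate 4 and 0.41 without replicate 1). Of 13 miRNAs often lower in liver tumours, 1, miR-223, was higher (0 without PTD 120 replicate 4) and 0 were lower, with a median of 0.54 against all controls, 0.03 against the DMSO day 30 controls and -0.14 against the April controls. Of 12 miRNAs of the miR-17 and related clusters, which are induced by Myc and promote proliferation, 1 was higher, which was miR-363, and the median was 0.61 against all controls and 0.15 against the DMSO day 30 controls. miR-363 had a -ΔCt of -9.35, -9.39, -10.04 and -6.31 at PTD 120, with replicate 4 the highest. Its log2 fold change against all controls was 1.69, or 0.87 without that array. In the fit without it, 0 of the 12 and 21 of all 376 miRNAs were higher. Of 6 p53-responsive miRNAs outside the miR-34 family, 0 passed, with a median of 0.38 against all controls and -0.24 against the DMSO day 30 controls. In the let-7, miR-30 and miR-23, miR-27 and miR-24 lists, 0 of 9, 0 of 5 and 0 of 5 passed. Their medians were 0.45, 0.25 and 0.32 against all controls, -0.15, -0.19 and -0.18 against the DMSO day 30 controls and -0.18, -0.13 and -0.085 against the April controls.

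Some miRNAs are read from large clusters. Of the 16 members of the Sfmbt2 intron cluster, 3 were higher at an unadjusted p under 0.05, which were miR-466c-5p, miR-467c and miR-466a-5p, and 0 were lower, beside 8.24% of all miRNAs higher and 0.532% lower. The median was 0.85 against all controls, 0.54 against the DMSO day 30 controls and 0.13 against the April controls. Scaled to the array median, it was 0.43, the highest of the 18 lists, of which 8 had a median below 0 and the stem-cell clusters the lowest, -0.26. In all 3 higher members of the Sfmbt2 cluster, PTD 120 replicate 4 was the highest array. Without it 1 of the 16 was higher, beside 21 of all 376 miRNAs. Without PTD 120 replicate 1 there were 8, beside 38 of 376. Without DMSO day 30 replicate 2 there were 7, beside 58 of 376. The members of the cluster have near-identical sequences, and whether the assays tell them apart was not tested. Of the 42 miRNAs of the imprinted Dlk1-Dio3 cluster, 3 were higher, which were miR-453, miR-431 and miR-496, and 0 were lower, a share near that of all miRNAs. The median was 0.35 against all controls and -0.14 against the DMSO day 30 controls, where 2 were higher and 3 lower, beside 3.46% and 3.72% of all miRNAs. Without DMSO day 30 replicate 2, 7 of the 42 were higher against the remaining controls, beside 58 of all 376 miRNAs. Scaled to the array median, 1 was higher and 2 lower, beside 2.93% of all miRNAs in each direction. miR-431 had a log2 fold change of 3.02 against the May controls and of 0.34 against the April controls. In the stem-cell clusters, 2 of 13 were higher, which were miR-291a-5p and miR-292-5p, and in the testis X-linked cluster 0 of 17, and 0 of either were lower. Scaled to the array median, or without PTD 120 replicate 1 or 2, 0 of the 13 stem-cell miRNAs were higher. The counts over all 376 miRNAs there were 11, 38 and 16. Without DMSO day 30 replicate 2 there were 4 of the 13, beside 58 of 376. Of the 17 testis miRNAs, 2 were higher without DMSO day 30 replicate 2. There was 1 without DMSO day 30 replicate 1 or without PTD 120 replicate 1, beside 39 and 38 of 376. The medians of the stem-cell and testis lists were 0.15 and 0.53 against all controls and -0.73 and -0.22 against the DMSO day 30 controls. They were 0.02 and -0.22 against the April controls and -1.49 and -0.998 against the May controls.

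**Figure D4:**
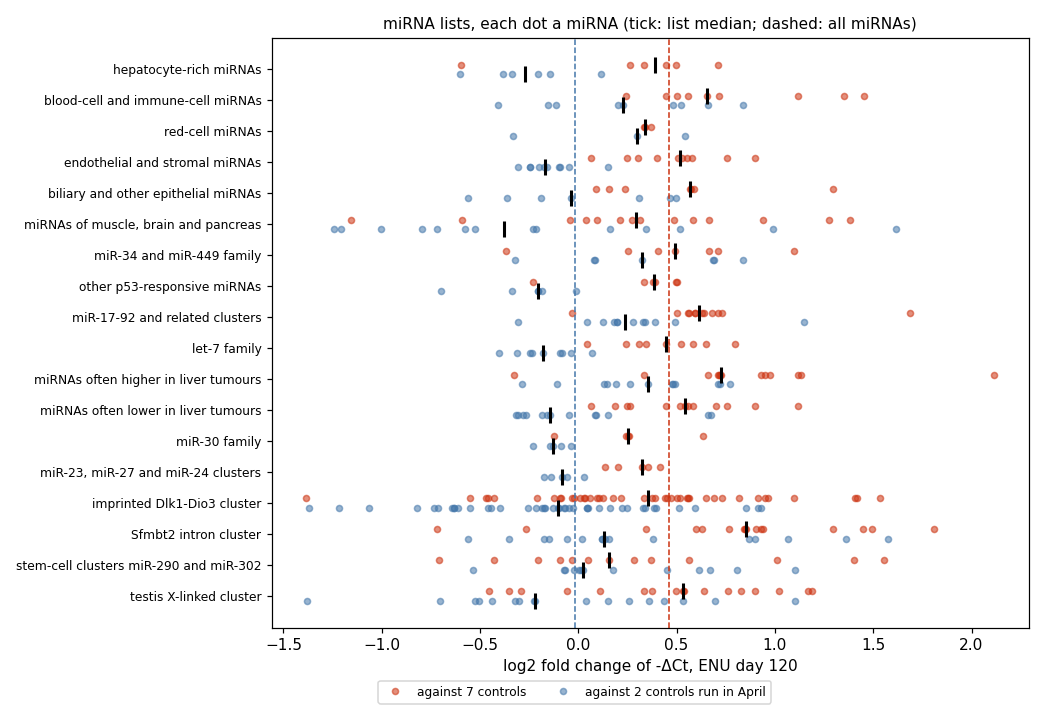
Log2 fold change of -ΔCt at PTD 120 (x axis) for the members of 18 miRNA lists (y axis), in red against 7 controls and in blue against the 2 controls run in April. Ticks are list medians and dashed lines the medians of all miRNAs, 0.46 in red and -0.017 in blue.

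The miR-34 family and its relatives were then compared between PTD 120 and PTD 30, since the arrays of both days were run in April and the comparison uses no control. Of the 376 miRNAs, 0 were higher DEMs (0%) and 3 were lower DEMs (0.798%), which were miR-34b-5p, miR-34a and miR-343. At an unadjusted p under 0.05, 4 (1.06%) were higher, which were miR-380-3p, miR-9, miR-704 and miR-467c, and 9 (2.39%) were lower, and the median of all miRNAs was -0.09. No adjusted p in limma was below 0.659, and no adjusted exact permutation p was below 0.994. The share of all miRNAs whose groups did not overlap in this comparison was not counted. In this comparison too, ENU and the age of the mice are not separated.

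miR-34a had a -ΔCt of -0.72, -0.71, -0.87 and 0.20 at PTD 120 and of 0.24, 1.07, 1.19 and 0.47 at PTD 30. The groups did not overlap, and the fourth PTD 120 array lay just below the lowest PTD 30 array. The log2 fold change was -1.27 (SE 0.366, adjusted p = 0.659 in limma, exact permutation p = 0.0286). It was between -1.21 and -1.12 and no DEM without PTD 120 replicate 1, 2 or 3 or PTD 30 replicate 2 or 3. Against the controls, whose -ΔCt ranged from -1.79 to -0.66, the log2 fold change at PTD 120 was 0.71 (SE 0.340, 95% interval -0.03 to 1.44, adjusted p = 0.446 in limma, exact permutation p = 0.0394). It was 0.85 against the DMSO day 30 controls, 0.69 against the April controls (0.45 without PTD 120 replicate 4), 0.29 when scaled to the array median and 0.47 against all controls without PTD 120 replicate 4.

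miR-34b-5p, which is made with miR-34c from 1 transcript, had a -ΔCt of -5.64, -5.77, -5.78 and -4.77 at PTD 120 and of -4.48, -3.61, -3.54 and -4.34 at PTD 30, again without overlap. The log2 fold change was -1.50 (SE 0.369, adjusted p = 0.659 in limma, exact permutation p = 0.0286), a DEM with each of the 8 arrays left out in turn, and it was 0.67 (SE 0.324, 95% interval -0.03 to 1.37) against the controls, or 0.43 without PTD 120 replicate 4. For miR-34c the mean -ΔCt was -8.79 ± 0.823 (SD, n = 4), compared with -8.09 ± 0.516 (SD, n = 4) on the earlier day, and the 95% interval of the difference was -1.68 to 0.29. The interval for miR-34b-3p, the other arm of miR-34b, was -1.22 to 0.38. Of the 7 miRNAs of the miR-34 and miR-449 family, 2 were lower than at PTD 30 at an unadjusted p under 0.05, the 2 DEMs named above, and 0 were higher, beside 2.39% and 1.06% of all miRNAs, with a median of -0.70. Against all 7 controls, 0 of the 7 passed an unadjusted p of 0.05 in limma at PTD 120, where the exact permutation p of miR-34a was 0.0394 and that of miR-34b-5p 0.0242, and the median was 0.49. The share of all miRNAs higher there was 8.24%. With 1 array left out, between 0 and 2 of the 7 passed. The 2 came without DMSO day 1 replicate 3, beside 27 of all 376 miRNAs higher. Against the DMSO day 30 controls 1, miR-34a, was higher at that threshold in limma, beside 3.46% of all miRNAs.

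miR-343, which lacks this seed, had a -ΔCt of -6.06, -6.06, -7.48 and -6.70 at PTD 120 and of -5.09, -4.75, -5.67 and -5.24 at PTD 30. All PTD 120 arrays lay below all PTD 30 arrays, and the log2 fold change was -1.39 (SE 0.393, adjusted p = 0.659 in limma, exact permutation p = 0.0286). It was between -1.40 and -1.08 and no DEM without PTD 120 replicate 3 or 4 or PTD 30 replicate 1, 2 or 4. In the controls the values were -6.54, -6.07 and -6.64 in the DMSO day 1 arrays, -4.92 and -5.20 in the April arrays and -5.08 and -6.28 in the May arrays, so that the PTD 120 arrays overlapped the DMSO day 1 controls and lay below both April controls. The log2 fold change against all controls was -0.76 (95% interval -1.72 to 0.21), or -0.45 without PTD 120 replicate 3.

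**Figure D5:**
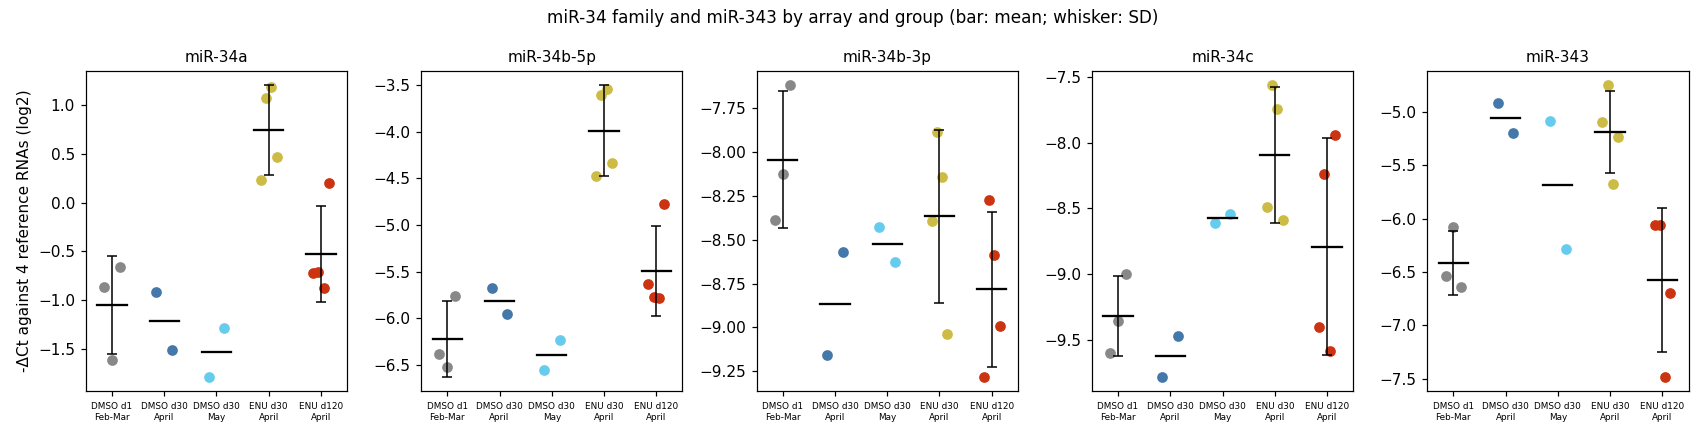
-ΔCt (log2 scale, y axis) of 4 miR-34 assays and miR-343, with 1 dot per array by group and run period, a bar for the mean and a whisker for the SD where a group holds over 2 arrays. The PTD 120 arrays lie below the PTD 30 arrays without overlap for miR-34a, miR-34b-5p and miR-343, and the groups overlap for miR-34b-3p and miR-34c.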

How the data were processed

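Liver small RNA was measured on real-time PCR arrays, 1 per mouse. The deposited Ct of each well was calculated by the authors with SDS (version 2.3) and a fixed threshold, without normalization. Wells were named from the array layout of the study. -ΔCt was computed against 4 reference RNAs as in the study. The 1 well of the 11 arrays without a Ct was treated as missing. Groups were compared by the moderated test of limma (3.58.1, run in R 4.3.3), two-sided, where the study used a two-sample test, and single miRNAs by exact permutation over all splits in Python (version 3.11.15). In simulated data with 4 against 7 arrays, 30 of 40 miRNAs changed by a log2 fold change of 2 were called as DEMs, and 3 unchanged ones. The simulated noise was independent between miRNAs and arrays and held no offset between run periods. These calls therefore need not hold for the real arrays. Named miRNAs were all DEMs, miRNAs the study lists for PTD 120, those with the smallest p where the mean Ct was 30 or less, the miR-34 family, miR-122, up to 3 per list by p and the most abundant. Outside this rule, miR-654-3p, miR-721, miR-376a, miR-679, miR-490, miR-763, miR-362-3p, miR-449c, miR-466f-5p, miR-421, miR-202-5p, miR-704, miR-582-5p, miR-380-3p, miR-124 and miR-137 were named once their values had been seen. The members, lists and tests were chosen with earlier results of these data known. Separate mice are the replicates, and the number of arrays limits the precision. Mature sequences came from RefSeq. Alternatives concerned the controls, run period, reference RNAs, missing and high Ct, filter, test, covariates and each array left out. Counts per list and differences from the controls of 1 day or period were recomputed with arrays left out after the data had been seen.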

Additional observations from a re-analysis of the deposited data

Results flagged for a closer look

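In 138 groups of 4 or 7 arrays tested, 11 held an array far from the others, where chance gives about 1 in 20. Of these, 9 were in the PTD 120 group and 2 in the controls, and in 7 of the 9 the array was PTD 120 replicate 4. The groups tested are those of the miRNAs chosen by the naming rule and of whole-array measures. Over all 376 miRNAs, replicate 2 was the highest of the 4 arrays for 162 and replicate 4 for 119, and replicate 4 was the lowest for 114. Replicate 4 had the highest -ΔCt for miR-34a (0.198, the others between -0.873 and -0.715), miR-34b-5p (-4.77, the others between -5.78 and -5.64), miR-449a (-8.87), miR-211 (-5.28), miR-199a-5p (-1.50) and miR-19b (2.39), and the lowest for miR-486 (-7.28). PTD 120 replicate 1 was high for miR-144 (-5.40) and replicate 2 for miR-16 (5.92). Among the controls, DMSO day 30 replicate 4 was high for miR-455 (-2.32) and DMSO day 1 replicate 1 low for miR-871 (-11.38).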

How the results depend on the processing

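The count of 5 DEMs depended on the controls. It was 105 with the DMSO day 1 controls alone (134 with an adjusted p under 0.05 in limma, and 203 at an unadjusted p under 0.05), 0 with the controls of the same run period and 2 with the run period as a block. It was 9 without the May controls, an alternative chosen after seeing the data, 16 with the control wells as a covariate, 12 in 1 fit of all 7 groups, 8 where only mean Ct values of 30 or less were kept, 1 with an unmoderated two-sample test that assumes equal variances (an assumption the methods do not state), 3 without snoRNA142 and 3 without U6. The cause was not tested. The 33 miRNAs at an unadjusted p under 0.05 became 8, 7, 56, 62 and 51 with the same run period, the period block, no May controls, the covariate and 1 fit of all groups. The median of all miRNAs, 0.46, was 1.04 with the DMSO day 1 controls, -0.017 with the same run period or the period block and 0.04 with the array median as reference, where the 5 DEMs were 1 higher and 4 lower. Leaving out each array gave between 1 (without PTD 120 replicate 2) and 15 DEMs (without DMSO day 30 replicate 2), and 18 and 60 miRNAs at an unadjusted p under 0.05 without the same arrays. It gave 2 DEMs without DMSO day 1 replicate 2 or PTD 120 replicate 4, and 3 without DMSO day 1 replicate 1 or 3 or PTD 120 replicate 1. The DEMs of PTD 120 against PTD 30 ranged from 2 to 5, the latter without PTD 120 replicate 2. With the replicate block the DEMs were 3 against the controls and 2 against PTD 30, but the numbers name different mice and same-numbered arrays did not deviate together (correlations from -0.12 to 0.13 across miRNAs). Among 17 other settings, miR-453 remained a DEM in 14, miR-211 in 11, miR-135b in 10 and miR-142-3p in 8, and miR-466c-5p in 6 of 16. Of the 31 higher miRNAs, 15 had a mean Ct of 30 or less, and the rest were measured at low signal.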
